A study of Mus musculus with 6 samples.

Results

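Among all accessible regions of P1 mouse heart nuclei, 11487 were promoter regions that were open in every one of 6 Omni-ATAC-Seq libraries. ATAC-Seq reads out open chromatin through the Tn5 transposase, which inserts sequencing adapters into DNA that is not wrapped by nucleosomes. The members were chosen by the peak calls themselves: the peaks of the 6 libraries were merged into 169872 regions, and a region was kept when it overlapped a peak of each library and lay within 1 kb of the transcription start site (TSS) of a protein-coding gene. The members were 6.76% of all merged regions, and they fell at the TSSs of 12371 of 21938 protein-coding genes (56.4%). Presence in all libraries is therefore given here as a description and not as a result.

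The nuclei were taken from P1 hearts (postnatal day 1) through a 2.2 M sucrose cushion, a step that the study uses to obtain mostly cardiomyocyte nuclei and to leave other cell types behind, and 50000 nuclei went into each library. There were 3 groups of 2 biological replicates. Input was the cushion-purified nuclei of wildtype hearts without immunoprecipitation. Myc was nuclei of Nkx2-5 Cre/+; R26R Sun1-Myc-Egfp/+ hearts, captured with a Myc antibody by magnet-assisted nuclei immunoprecipitation (MAN-IP). In these hearts the Nkx2-5 Cre driver removes a stop cassette at the ROSA26 locus and marks cardiomyocyte, smooth muscle and endothelial lineages alike with a Myc-tagged SUN1 protein of the nuclear envelope. PCM1 was nuclei labelled as wildtype and captured by MAN-IP with an antibody to PCM1, a centriolar satellite protein that surrounds the nucleus of post-mitotic cardiomyocytes. By the labels, the Cre and the tag are carried by the Myc hearts only. Genotype and antibody capture can thus not be told apart in the comparison of Myc with Input, nor in that of Myc with PCM1.

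One group went against its label. The transgene carries a Sun1 coding sequence without introns, and peak summits inside Sun1 coding exons numbered 0 and 0 for the Input pair, 4 and 4 for the Myc pair, and 3 and 7 for the PCM1 pair. The PCM1 group, labelled wildtype, thus had such summits, as Myc did and Input did not. Without both PCM1 libraries in the rule, 12181 promoter regions were kept in place of 11487, at 12932 genes in place of 12371. The comparisons below are given under the labels of the libraries, and that of Myc with Input is also given without the PCM1 libraries.

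Depth differed between the libraries. The deposited lists held 131500 and 75336 peaks for the Input pair, 107216 and 108513 for the Myc pair, and 83139 and 81487 for the PCM1 pair, and the genome background read from them was 3.96, 1.02, 1.44, 1.44, 0.977 and 0.903 reads per position in the same order. Input replicate 1 was thus 4.38 times as deep as PCM1 replicate 2. A region that a shallow library missed could not become a member, which limits how far members can differ between groups. The 6 libraries are bulk preparations, so fewer nuclei of a cell type and a lower accessibility in each nucleus cannot be told apart.

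Promoters of vertebrate genes fall broadly into CpG-rich promoters, which belong mostly to genes used by every cell and keep a stretch free of nucleosomes just upstream of the TSS, and CpG-poor promoters, which are more often tissue-specific and may carry a TATA box. The nucleosome-free stretch holds the binding sites of general activators, among them NF-Y at the CCAAT box, SP1 at the GC box, ETS factors, NRF1, YY1, CREB family factors at the cyclic AMP response element (CRE) and ZNF143. Transcription starts on both strands at many such promoters, and neighbouring genes can share one of them. In the heart, cardiac factors such as GATA4, MEF2, TBX5 and NKX2-5 are known to act largely at enhancers away from promoters.

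The sequences printed here are the 150 bases upstream of the TSS of 11 members on which the results below turn, written in the direction of the gene, from the RefSeq GRCm38.p6 genome at the GENCODE M21 TSS. Capitals mark motif letters that a search on both strands found: CCAGAATG for ZNF143, CCAAT for the CCAAT box, GGGCGG for the GC box, CCGGAAG for ETS, TGACGTCA for the CRE, and GCATGCGC or GCGTGCGC for NRF1. The ZNF143 letters were chosen after these strongest promoters had been read. A match is a description of the letters and not a measured binding site. The first 5 promoters are among the 12 strongest members. They lie at chr8:105860430-105860579 (+ strand) for Nutf2, chr8:91313375-91313524 (+ strand) for Fto, chr3:100922052-100922201 (+ strand) for Trim45, chr16:64851846-64851995 (+ strand) for Cggbp1 and chr11:118290245-118290394 (- strand) for Usp36.
Nutf2: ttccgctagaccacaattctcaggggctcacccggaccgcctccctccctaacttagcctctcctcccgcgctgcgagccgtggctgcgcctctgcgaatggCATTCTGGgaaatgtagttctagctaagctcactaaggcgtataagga
Fto: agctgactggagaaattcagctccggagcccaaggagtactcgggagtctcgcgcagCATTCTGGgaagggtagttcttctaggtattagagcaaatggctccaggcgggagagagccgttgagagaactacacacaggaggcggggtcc
Trim45: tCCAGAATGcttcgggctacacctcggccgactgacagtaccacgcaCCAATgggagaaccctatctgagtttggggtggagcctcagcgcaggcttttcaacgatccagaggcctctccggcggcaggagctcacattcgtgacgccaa
Cggbp1: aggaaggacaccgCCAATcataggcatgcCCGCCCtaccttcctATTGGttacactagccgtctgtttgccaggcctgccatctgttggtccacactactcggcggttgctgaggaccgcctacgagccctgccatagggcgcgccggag
Usp36: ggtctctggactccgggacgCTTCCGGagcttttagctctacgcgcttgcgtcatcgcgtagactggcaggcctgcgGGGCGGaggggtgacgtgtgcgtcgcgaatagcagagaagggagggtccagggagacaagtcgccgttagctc

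Nutf2 encodes a nuclear import factor for Ran, Fto an RNA demethylase, Trim45 a RING-finger ubiquitin ligase, Cggbp1 a protein that binds CGG repeats and Usp36 a nucleolar deubiquitinase. The ZNF143 letters began 48 bases before the TSS of Nutf2, 93 before that of Fto and 149 before that of Trim45. Cggbp1 held a CCAAT box on each strand with a GC box between them, and Usp36 an ETS match and a GC box.

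The next 4 promoters were among those that stood highest in Myc against Input or against PCM1. Cenpe encodes a kinetochore motor, Cmss1 a factor of ribosome maturation, and Snrpf and Snrpb2 proteins of the spliceosome. They lie at chr3:135212387-135212536 (+ strand) for Cenpe, chr16:57606865-57607014 (- strand) for Cmss1, chr10:93589707-93589856 (- strand) for Snrpf and chr2:143062889-143063038 (+ strand) for Snrpb2.
Cenpe: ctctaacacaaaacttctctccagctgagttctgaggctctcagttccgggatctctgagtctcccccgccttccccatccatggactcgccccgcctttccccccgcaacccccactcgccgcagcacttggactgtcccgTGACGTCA
Cmss1: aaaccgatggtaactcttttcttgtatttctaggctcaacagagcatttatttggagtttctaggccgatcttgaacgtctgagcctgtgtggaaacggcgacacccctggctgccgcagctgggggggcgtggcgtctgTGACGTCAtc
Snrpf: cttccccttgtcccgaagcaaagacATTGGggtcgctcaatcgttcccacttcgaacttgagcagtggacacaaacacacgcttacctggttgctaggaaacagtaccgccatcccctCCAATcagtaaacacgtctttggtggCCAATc
Snrpb2: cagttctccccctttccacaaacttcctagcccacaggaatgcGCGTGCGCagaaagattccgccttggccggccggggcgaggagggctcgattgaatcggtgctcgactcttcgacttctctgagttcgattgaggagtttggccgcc

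The CRE of Cenpe ended at the base before the TSS and that of Cmss1 began 10 bases before it. Snrpf held 3 CCAAT boxes and Snrpb2 one NRF1 match.

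The last 2 promoters show the CpG-poor kind. Tuba8 encodes an alpha-tubulin, and Myh6 the alpha-myosin heavy chain of cardiomyocytes. They lie at chr6:121210546-121210695 (+ strand) for Tuba8 and chr14:54966928-54967077 (- strand) for Myh6.
Tuba8: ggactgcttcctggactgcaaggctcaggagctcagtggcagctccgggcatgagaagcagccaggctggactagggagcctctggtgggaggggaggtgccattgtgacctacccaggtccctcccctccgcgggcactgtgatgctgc
Myh6: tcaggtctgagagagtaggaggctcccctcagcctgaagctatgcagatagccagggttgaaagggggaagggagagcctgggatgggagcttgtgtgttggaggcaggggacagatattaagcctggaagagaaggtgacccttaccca

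The upstream stretch of Tuba8 held 3 CpG dinucleotides and that of Myh6 held 0, against 16 in Usp36, and neither held a match to the motifs marked above.

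Members sat on the TSS itself. The median position of the 6 summits of a member was 21 bp upstream of the nearest TSS, 60.9% of members had it upstream, and 7018 members (61.1%) had it within 100 bp of the TSS and 8543 (74.4%) within 200 bp. A TSS lay inside 10192 members (88.7%). In 466 members (4.06%) the median summit was more than 1000 bp from one, and another part of the region overlapped the 1 kb window. The bin from 50 bp upstream to the TSS was the fullest in each library, with 27.1% and 26.2% of the summits for the Input pair, 28.4% and 28.0% for the Myc pair, and 24.1% and 23.6% for the PCM1 pair. The 6 libraries thus placed their summits alike, and PCM1 had the smallest share in that bin in both replicates.

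**Figure D1:**
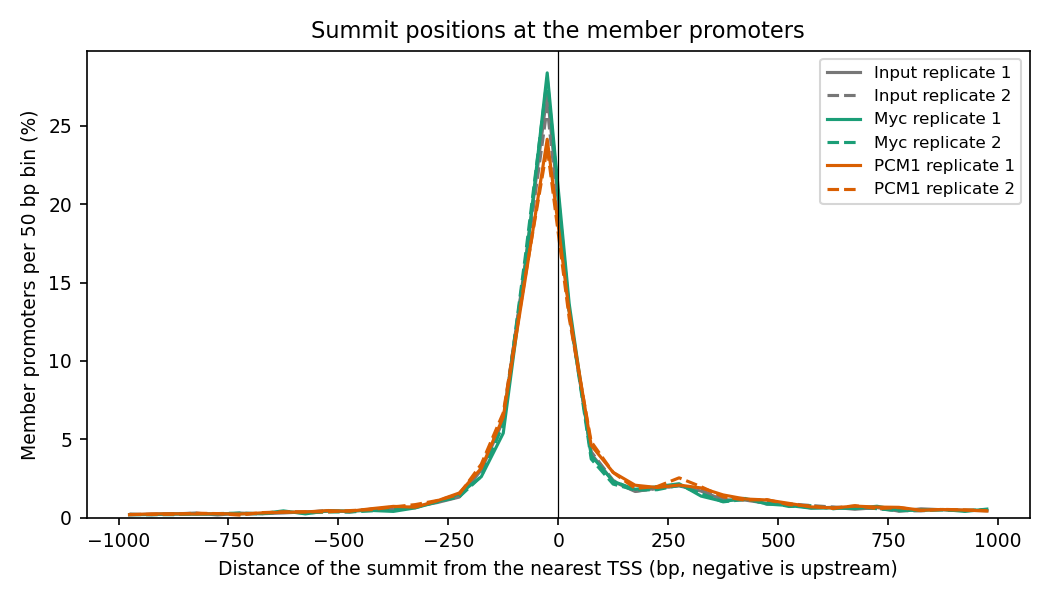
Position of the summit of each member in relation to the nearest protein-coding TSS, in bp with the direction of transcription to the right, against the percent of the library's member summits in each 50 bp bin. One line is drawn per library (Input, Myc, PCM1, 2 replicates each). All 6 lines peak just upstream of the TSS, at 23.6 to 28.4% of summits.

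The summits of one member agreed closely between libraries. The distance between the outermost of the 6 summits had a median of 51 bp in members and 64 bp in the 37374 regions that were open in all 6 libraries away from a TSS. It was within 50 bp in 49.6% of members and 38.4% of the regions away from a TSS, and within 200 bp in 85.1% of members. Its 90th percentile went the other way, at 318 bp in members and 242 bp away from a TSS. Members were also wider, with a median of 932 bp (10th to 90th percentile 609 to 1357 bp) against 598 bp away from a TSS, and 9458 members (82.3%) consisted of 1 peak in every library.

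Most members served 1 TSS. There were 10165 members with 1 protein-coding TSS in the window, 1274 with 2, and 48 with 3 or more. Pairs of genes that start on opposite strands and share a member made up 711 members (6.19%), with a median gap of 125 bp between the starts, and they held 1407 genes. The members with the most TSSs had 4 each. One held Bola1 and the histone genes Hist2h2ab, Hist2h2ac and Hist2h2be, one held Gon7, Ubr7 and 2 predicted genes, and one held Zc3h11a under 2 entries of the annotation with Zbed6 and Gm38394. Among the widest members were those of Nsd1 (3005 bp), a histone H3K36 methyltransferase, and Dnmt3a (2688 bp), a de novo DNA methyltransferase. The members whose edges lay farthest from a TSS were those of Proca1, Myo1c and Junb, whose edges lay 998, 997 and 996 bp from the TSS.

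Strength was compared within a library by the rank percentile of a region, in which the peak with the highest -log10 q-value in a list has 100. The median rank of members was 93.0 and 87.4 for the Input pair, 93.0 and 92.9 for the Myc pair, and 87.1 and 86.6 for the PCM1 pair. Of the members, 84.2% were above the 50th percentile in each library, against 48.0% of the all-library regions away from a TSS, and 3947 (34.4%) were above the 90th percentile in each, against 4.58%. The weakest of a member's 6 ranks came from Input replicate 2 in 3565 members, PCM1 replicate 1 in 3012 and PCM1 replicate 2 in 3667, and from Input replicate 1 in 24. Input replicate 2 and the PCM1 libraries also have the 3 shortest lists, and the part of list length in these ranks was not tested.

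Promoter regions that were open in exactly 5 libraries numbered 769, and the missing library was PCM1 replicate 2 in 263, Input replicate 2 in 251, PCM1 replicate 1 in 213, Myc replicate 2 in 22, Myc replicate 1 in 18 and Input replicate 1 in 2. Their median rank was 46.8, against 90.5 for members. The strongest regions just outside were those of Cbln4, a synaptic organizer, Clvs1 and Fastkd2, a mitochondrial RNA-binding protein, with median ranks of 85.6, 84.6 and 84.5 in 5 libraries and no peak in PCM1 replicate 1. The weakest just inside were those of Slc25a43, a mitochondrial carrier, Igfbp5, an IGF-binding protein, and Ptgir, the prostacyclin receptor, whose best ranks in any library were 28.9, 29.8 and 31.6. The border was therefore not one of strength alone. A peak missing from 1 library means that none was detectable at its depth.

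The 2 conditions of the rule crossed as follows, as a description. The share of merged regions that touched the window of a TSS was 2.63% of regions in 1 library, 3.17% in 2, 3.65% in 3, 4.27% in 4, 5.30% in 5 and 23.5% in 6. Of the protein-coding genes, 6969 (31.8%) had no region in the window in any library and 2598 had a region in 1 to 5 libraries.

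The strongest members were near the top of each of the 6 lists. In Dnpep, an aspartyl aminopeptidase (chr1:75316943-75318121 in mm10), the summit pileup, which is the number of reads over the summit, was 2304 and 631 for the Input pair, 493 and 554 for the Myc pair, and 517 and 461 for the PCM1 pair. Its lowest rank was 99.98. Nutf2 (chr8:105860147-105861077) had pileups of 1572 and 474 for the Input pair, 445 and 468 for the Myc pair, and 379 and 409 for the PCM1 pair. Hjurp, the chaperone that loads the centromeric histone CENP-A, had 1401 and 423 for the Input pair, 905 and 956 for the Myc pair, and 344 and 332 for the PCM1 pair, and was the highest in Myc among these. The other 9 of the 12 strongest were Evi5l, Trim45, Rab40c, Usp36, Cggbp1, Tbl2, Ap2a1, Usp22 and Fto. Evi5l encodes a Rab GTPase-activating protein, Rab40c a GTPase of the Rab family, Ap2a1 a subunit of the AP-2 clathrin adaptor and Usp22 the deubiquitinase of the SAGA coactivator. The regions of Hjurp, Cggbp1 and Fto also held the TSS of Trpm8, Zfp654 and Rpgrip1l. None of the 12 was in a list of cell type markers.

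Stronger members were wider, had summits that agreed better and were more often shared by a pair of genes. Members were split by median rank into 5 bands of equal size. From the weakest to the strongest band, the median width was 790, 894, 948, 973 and 998 bp, and the median distance between the outermost summits was 114.5, 53, 40, 36 and 40 bp. Divergent pairs made up 1.65%, 3.87%, 5.92%, 8.05% and 11.4% of the bands. These are descriptions across regions of the same libraries, since width and summit position are read from the same peaks as the rank.

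The sequence of members was not part of the rule. CpG content was measured as the ratio of observed to expected CpG dinucleotides from the counts of C and G, and a promoter was called CpG-rich above 0.6. In the window from 250 bases before to 50 bases after the TSS, the median ratio was 0.750 for the 12371 genes with a member, 0.379 for genes with a region in 1 to 5 libraries, 0.162 for genes with no region and 0.524 for all protein-coding genes. CpG-rich promoters were 70.1% of the genes with a member (95% exact binomial interval 69.3 to 70.9%), 27.5% of those in 1 to 5 libraries and 4.75% of those with no region (4.26 to 5.28%), beside 44.3% of all genes. These intervals cover counting error only. The median GC content of the same windows was 60.3%, 54.3%, 45.7% and 55.0%.

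**Figure D2:**
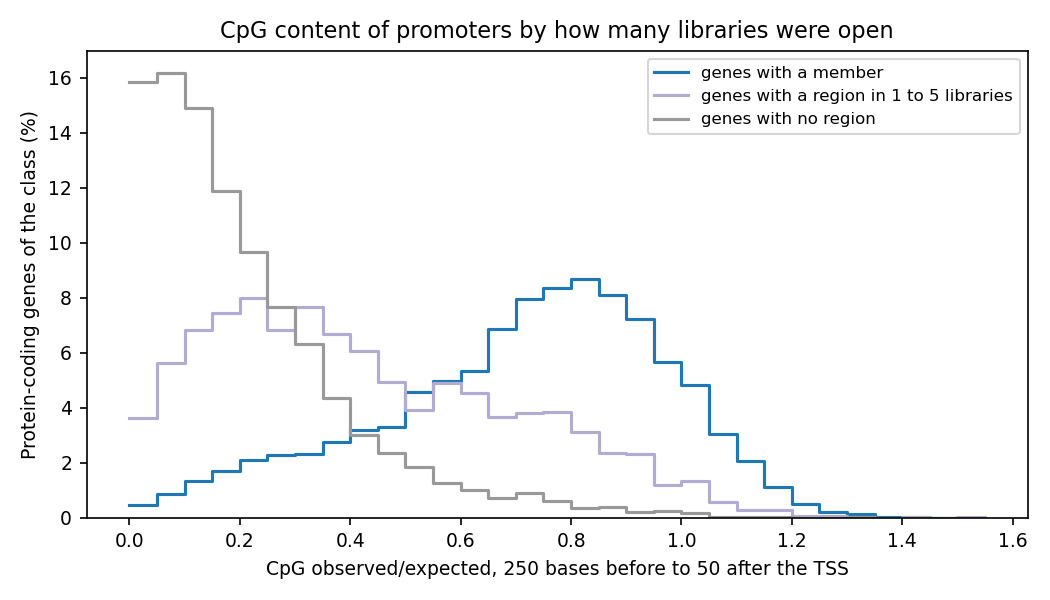
Distribution of the ratio of observed to expected CpG in the 300-base window around the TSS, as percent of genes per bin, for genes with a member, genes with a region in 1 to 5 libraries and genes with no region. Genes with a member lie mostly above 0.6 (70.1% of them) and genes with no region mostly below it (4.75% above).

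The letters of general promoter factors were more frequent at genes with a member, and those of the TATA box less. The GC box GGGCGG occurred in 63.4% of these windows, against 9.61% at genes with no region and 43.0% of all promoters of this length. The ETS letters CCGGAAG occurred in 16.8%, against 2.35% and 10.8%, the YY1 letters AAGATGGC in 4.20%, against 1.32% and 2.92%, and the CRE TGACGTCA in 3.48%, against 0.947% and 2.43%. The E-box CACGTG occurred in 10.2%, against 3.66% and 7.75%. The TATA box letters TATAAA went the other way, with 6.98% at genes with a member, 22.8% at genes with no region and 12.6% of all promoters. CCAAT was nearly even, at 38.5%, 41.9% and 39.0%, and so was CCAGAATG for ZNF143, at 1.5%, 1.58% and 1.52%. GC-rich letters are more frequent in GC-rich windows in any case, and the part of base composition in these shares was not tested.

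A window of 200 bases around the summit set members beside the regions that were open in all libraries away from a TSS. The median CpG ratio was 0.809 in members and 0.227 away from a TSS, and the median GC content was 66% and 52.5%. NRF1 letters occurred in 9.31% of members and 1.19% of the regions away from a TSS, ETS letters in 15.4% and 2.23%, GC boxes in 64.7% and 11.1%, and CCAAT in 31.5% and 21.1%. Several motifs, those of cardiac and muscle factors among them, were the more frequent away from a TSS. The GATA letters AGATAA occurred in 2.28% of members and 12.7% away, the TEAD letters GGAATG in 7.16% and 16.5%, and the MEF2 motif in 2.1% and 6.42%. The NKX2-5 letters AAGTG occurred in 26.8% and 40.1%. So did the AP-1 letters TGACTCA or TGAGTCA in 2.02% and 7.10%, and the TATA letters TATAAA in 2.69% and 7.38%. The T-box letters AGGTG were nearly even, in 33.7% and 36.6%. Within members, CCAAT occurred in 18.8%, 22.1%, 28.3%, 36.4% and 51.7% of the 5 bands of median rank, from the weakest to the strongest, and the GC box in 50.9%, 59.6%, 64.2%, 72.8% and 75.9%. The ZNF143 letters shown in Nutf2, Fto and Trim45 were in 0.749% of members and in 0.957% of the strongest band.

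CpG-poor members were weaker and narrower. Members with a CpG ratio in the summit window of at most 0.4 numbered 1135 (9.88%), those from 0.4 to 0.6 numbered 1406, those from 0.6 to 0.8 numbered 3037, and those over 0.8 numbered 5909 (51.4%). Their median rank was 75.4, 85.7, 91.6 and 92.0, and their median width 690, 846, 923 and 987 bp.

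Genes of general cell functions had a member in nearly all cases. Of the genes of the translation machinery, 80 of 86 cytosolic ribosomal protein genes, 76 of 78 mitochondrial ribosomal protein genes, 36 of 37 aminoacyl-tRNA synthetases and 51 of 55 translation initiation factors had a member. The same held for 77 of 86 oxidative phosphorylation subunits, 35 of 39 proteasome subunits, 31 of 34 spliceosome genes, 64 of 70 genes of RNA polymerase II and the general factors, 23 of 24 cullins and ubiquitin enzymes, and 17 of 17 genes of the chaperonin and the Hsp70 and Hsp90 chaperones, beside 56.4% of all protein-coding genes. Their median ranks were between 89.7 (cullins and ubiquitin enzymes) and 97.2 (chaperones), with 90.8 for all member regions of genes. The strongest member of these groups was one shared by Mrpl18, a mitochondrial ribosomal protein, and Tcp1, a chaperonin subunit, with a median rank of 99.9. The weakest was Psma6, a proteasome subunit, at 20.4.

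Genes of heart muscle were nearly as complete. All 22 of 22 fatty acid oxidation genes had a member, as did 24 of 26 genes of calcium handling and channels, 20 of 24 core cardiac transcription factors and 23 of 28 sarcomere and Z-disc genes, with median ranks of 93.7, 88.3, 89.4 and 90.7. Esrra, a nuclear receptor of mitochondrial energy genes, was the strongest fatty acid oxidation member (median rank 99.9) and Cd36, the fatty acid transporter, the weakest (59.9). Among the transcription factors the range ran from Tbx3 (99.0) to Gata5 (53.2), and among the calcium genes from Cacna1c, the L-type calcium channel (98.7), to Kcnj5, a potassium channel (46.8). Cell cycle genes had a member in 27 of 30 cases, from E2f3 (99.7) to Ccnd1, cyclin D1 (60.6).

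Most groups of other tissues, of receptors and of patterning genes had a lower share of genes with a member than all protein-coding genes (56.4%), and the neuronal share, 10 of 20 genes, was close to it. A member was found at 5 of 18 genes of the skeletal muscle program, 1 of 18 liver genes, 3 of 49 keratins, 3 of 39 Hox genes, 1 of 18 germline genes, 2 of 1135 olfactory receptors and 3 of 365 vomeronasal and taste receptors. Some of these few stood in a shared region. The member of Mylpf, a skeletal myosin light chain, was shared with Tbc1d10b and had a median rank of 99.8, and the member of the vomeronasal receptor Vmn1r4 was shared with Nt5c3 and had 98.7. The germline member was that of Dazl, an RNA-binding protein of germ cells, at 92.5, with pileups of 350 and 95 for the Input pair, 119 and 114 for the Myc pair, and 54 and 57 for the PCM1 pair. Replication-dependent histones lay between, with 54 of 67 genes in 39 members.

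**Figure D3:**
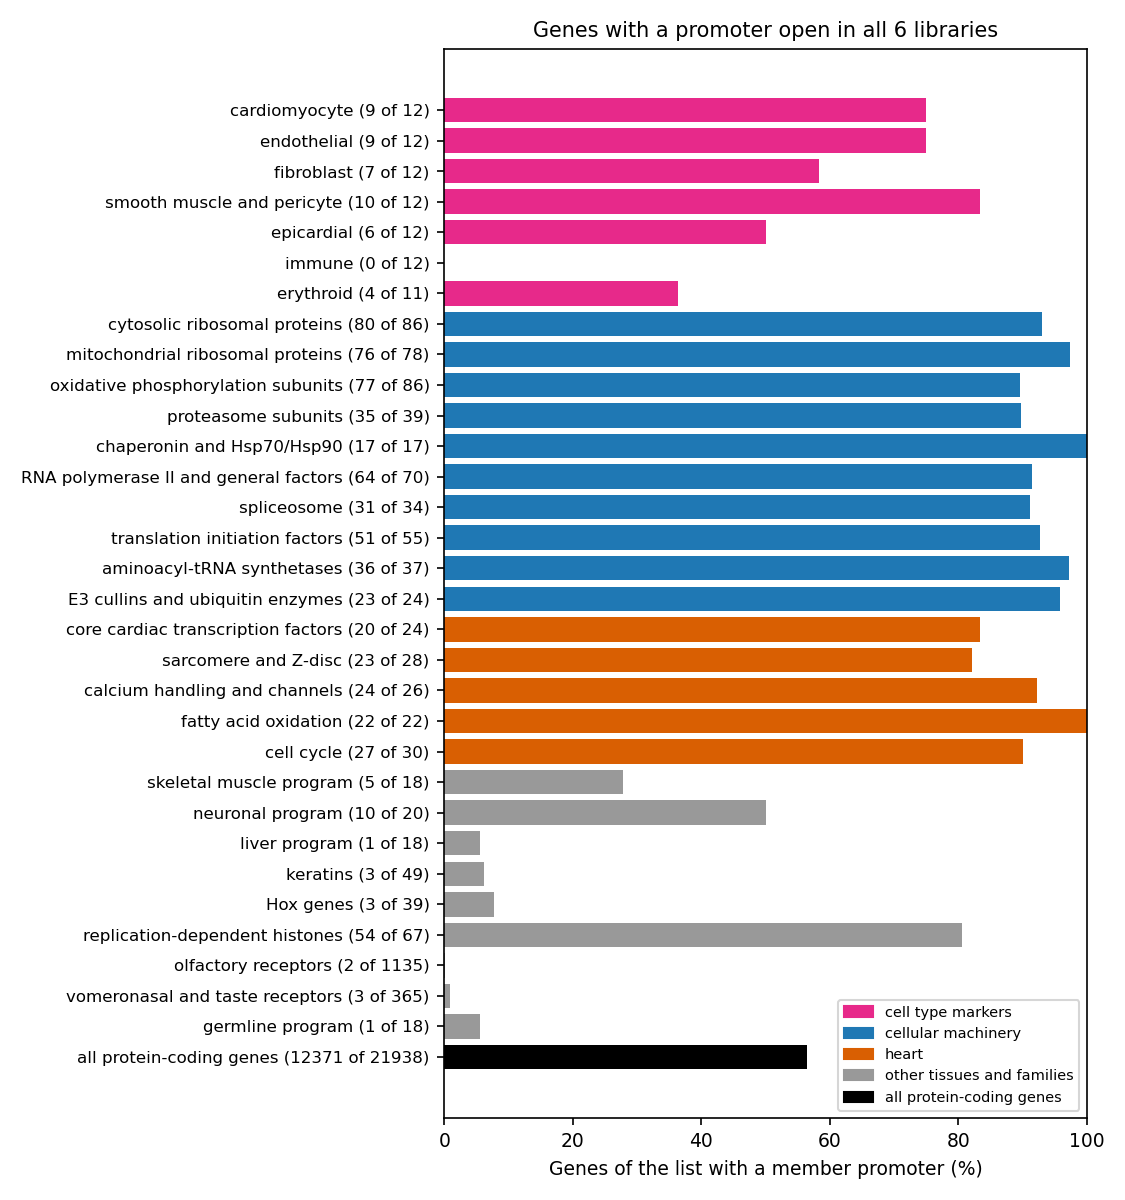
Gene groups by the share of their genes that had a member, in percent, beside the share for all protein-coding genes (56.4%). Housekeeping and cardiac groups lie above that share, and receptors, keratins, Hox, liver and germline genes far below it.

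Markers of several cell types besides cardiomyocytes had members. Of the cardiomyocyte markers 9 of 12 had a member, of the endothelial 9 of 12, of the smooth muscle and pericyte 10 of 12, of the fibroblast 7 of 12, of the epicardial 6 of 12, of the erythroid 4 of 11 and of the immune 0 of 12, beside 56.4% of all protein-coding genes. Median ranks were 91.3, 64.5, 79.1, 66.9, 68.0 and 66.9 in the groups with members. The fibroblast and epicardial shares were close to that of all genes. The cardiomyocyte markers had the highest median rank of these lists.

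Within the cardiomyocyte list, Tnnt2, Actc1, Nppa, Myl2, Myl3, Pln, Ryr2, Tnnc1 and Myh6 had a member. Myh7 was open in 5 libraries, Myl7 in 4 and Tnni3 in 0. These counts, and those of the other lists, refer to a single annotated TSS per gene. A count of 0 means that no peak was called within 1 kb of that TSS, and not that every promoter of the gene was closed. With every protein-coding transcript start in the rule, 13093 genes had a member in place of 12371. Whether marker genes were among those that changed was not tested. Of the endothelial list, Pecam1, Egfl7 and Vwf were open in 2, 1 and 0 libraries, while Emcn, Tek, Tie1, Kdr, Flt1, Cdh5, Robo4, Cldn5 and Erg had a member. Of the fibroblast list, Postn, Pdpn, Col1a2, Tcf21, Dcn, Col1a1 and Fbln1 had one, and Col3a1 and Ddr2 were open in 5 libraries, Dpt and Pdgfra in 3 and Lum in 2. The smooth muscle and pericyte list lacked Rgs5 and Cnn1, each open in 4 libraries, and had Kcnj8, Abcc9, Tagln, Cspg4, Smtn, Myh11, Mylk, Notch3, Pdgfrb and Acta2. The epicardial members were Wt1, Upk3b, Bnc1, Aldh1a2, Tbx18 and Krt8, with Lrrn4 in 5 libraries, Upk1b in 4, Krt19 and Krt18 in 3, Muc16 in 2 and Msln in 0. The erythroid members included Klf1, Epor and Tfrc, which has a role in iron uptake in every dividing cell. Of the immune list, Ptprc, Cd52, Itgam, Cx3cr1, Cd68, Adgre1 and Csf1r were at 0 libraries, Spi1 at 3, Lyz2 at 2, and Fcer1g, Laptm5 and Tyrobp at 1.

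For comparisons between groups, the level of a region was log2 of the summit pileup plus 1, centred on the library's median over the 48861 regions that were open in all 6 libraries. Levels were tested with limma over all of these regions, with Benjamini-Hochberg adjustment over all of them and a threshold of 0.05. A difference of 1 is thus a doubling in relation to the median region. With 2 libraries a group, an exact permutation test of a single region cannot give a two-sided p below 0.333, so calls rest on the spread that limma pools over regions. Replicates correlated across members with a Pearson r of 0.974 for the Input pair, 0.972 for the Myc pair and 0.963 for the PCM1 pair, and libraries of different groups with 0.877 to 0.944, which describes 11487 regions that share the libraries.

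By summit pileup, promoters as a class stood higher above distal regions in Myc and lower in PCM1 than in Input. The median log2 pileup of members minus that of the all-library regions away from a TSS was 1.61 and 1.53 for the Input pair, 1.78 and 1.73 for the Myc pair, and 1.32 and 1.28 for the PCM1 pair. The group means were 1.57 ± 0.054, 1.76 ± 0.033 and 1.30 ± 0.032 (SD, n = 2), and the groups did not overlap. With an equal number of peaks from each library the means were 1.48, 1.64 and 1.19. In the fold enrichment over the local background, which the authors' peak caller gave, the difference was smaller, at 0.645 ± 0.10 (Input), 0.672 ± 0.021 (Myc) and 0.582 ± 0.0070 (PCM1) as mean ± SD of 2 libraries, and both Myc and PCM1 overlapped with Input, whose libraries were at 0.573 and 0.717. This shift of the whole class runs through all counts that follow, since a member called higher in Myc than in PCM1 is higher in relation to the median region, most of which lay away from a TSS.

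**Figure D4:**
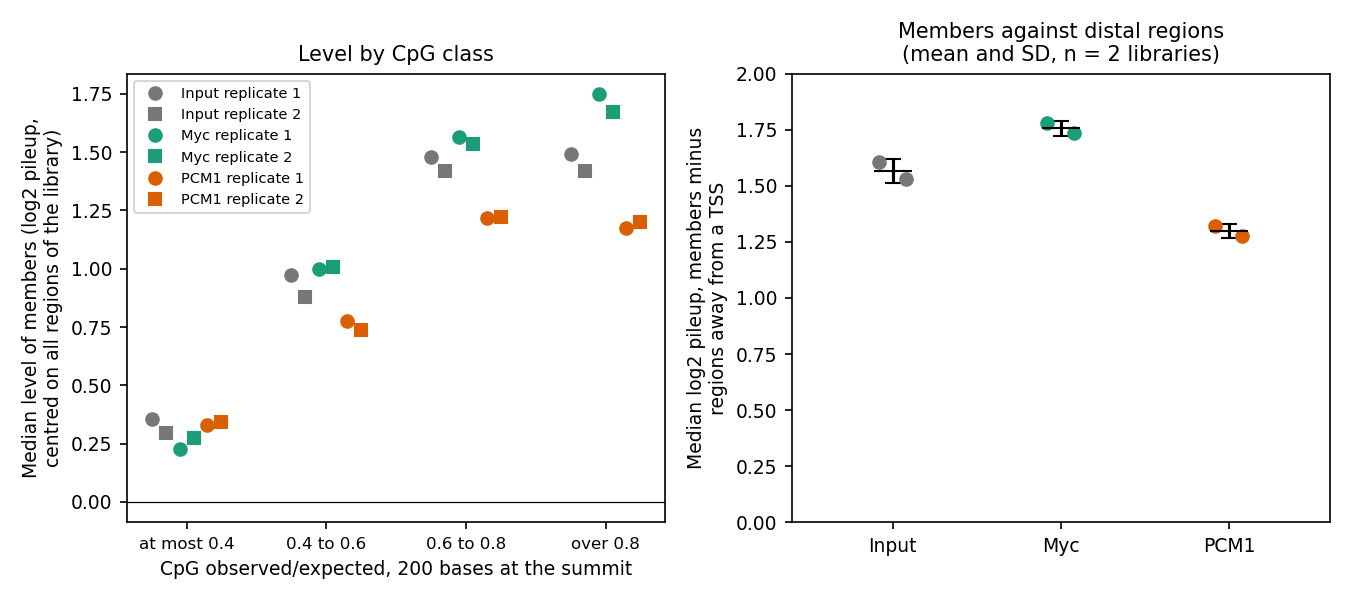
Left, median level of members (log2 summit pileup plus 1, centred on the library's median region) in 4 classes of CpG ratio in the summit window, one point per library in each class. Right, median log2 pileup of members minus that of all-library regions away from a TSS, one point per library with the group mean and SD (n = 2). The CpG-richest members were the highest in Myc, and members stood 1.76 (Myc), 1.57 (Input) and 1.30 (PCM1) above distal regions.

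Myc and Input differed in both directions. Of the members, 1162 were higher in Myc (10.1%, beside 4.28% of all regions tested) and 1145 were lower (9.97%, beside 9.27%). The median difference over members was 0.08 on the log2 scale, with the 10th and 90th percentiles at -0.41 and 0.56. Among the called members the libraries of the 2 groups did not overlap in 1161 of 1162 and in 1144 of 1145. With 2 libraries a group, a call nearly always goes with such a gap. The share over all regions was not counted, so these counts are no separate check on the calls. When levels were centred on the members alone, 445 of the 1162 and 1145 of the 1145 kept their call. With the fold enrichment in place of the pileup, 11 members were higher and 2 lower. The share of calls that were higher in Myc was 50.4%, and it was 75.7% after quantile normalization, 82.4% with scaling by the genome background and 16.9% with centring on members. Without Input replicate 1, Input replicate 2, Myc replicate 1 or Myc replicate 2, the 2307 calls became 1537, 885, 997 and 1198, and the members higher in Myc went from 1162 to 760, 250, 285 and 418. With both PCM1 libraries left out of the fit, 1689 members were higher in Myc and 1332 lower.

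PCM1 and Input differed mostly in one direction on this scale. Of the members, 151 were higher in PCM1 (1.31%, beside 2.90% of all regions) and 2592 were lower (22.6%, beside 8.24%), with a median difference of -0.22. Centred on members, 151 of the 151 and 872 of the 2592 kept their call. The fold enrichment gave 3 higher and 49 lower. The share of calls that were higher in PCM1 was 5.50%, and it was 16.1% after quantile normalization, 21.1% with scaling by the genome background and 48.6% with centring on members, where the median difference over all regions became 0.10 and 0.21 in the last 2 cases, from -0.03. Without Input replicate 1 or Input replicate 2, the 2743 calls became 1403 and 1261, and the members higher in PCM1 went from 151 to 92 and 26. This comparison and the one before share the Input libraries and are not independent of each other.

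The direct comparison of the 2 captures gave the most calls. Of the members, 4271 were higher in Myc than in PCM1 (37.2%, beside 15.2% of all regions) and 864 were lower (7.52%, beside 13.7%), with a median difference of 0.29. Centred on members, 1465 of the 4271 and 864 of the 864 kept their call, and the fold enrichment gave 616 higher and 276 lower. The share of calls that were higher in Myc was 83.2%, with 69.1% by fold enrichment and 31.5% with centring on members. Without Myc replicate 1, the 5135 calls became 3317.

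The difference between the captures varied with CpG content. The median difference of Myc minus PCM1 was -0.14, 0.09, 0.21 and 0.43 in the 4 classes from CpG-poor to CpG-rich. The share called higher in Myc was 10.3%, 20.9%, 31.8% and 49.0%, and the share called lower was 23.3%, 10.8%, 8.26% and 3.33%. Against Input, the median difference of Myc was -0.09, -0.01, 0.00 and 0.17, and that of PCM1 was 0.01, -0.15, -0.23 and -0.27. The members higher in Myc than in Input had ETS letters in the summit window in 28.7%, YY1 letters in 7.83% and a CRE in 5.94%, beside 15.4%, 3.65% and 3.1% of all members. Those lower in Myc than in Input had ETS letters in 8.03% and a GC box in 75.8%, beside 64.7% of all members for the GC box. Of the members lower in Myc than in PCM1, 0.347% had a CRE and 4.86% the MEF2 motif, against 2.1% of all members for MEF2. Strength moved with these differences too: from the weakest to the strongest band of rank the median difference of Myc minus Input was 0.14, 0.23, 0.20, 0.09 and -0.20, and in the strongest band 37 members were higher in Myc and 809 lower. GC content, CpG content and strength move together across members, and their separate parts were not tested.

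The 12 strongest members leaned the same way as the strongest band, beside 9.97% of all members lower in Myc than in Input and 10.1% higher. Of the 12, 11 were lower in Myc than in Input and 1, Hjurp, was higher (0.60, SE 0.07, limma adjusted p = 1.09e-07). The largest was that of Dnpep (-0.88, SE 0.07, limma adjusted p = 5.19e-12) and of Tbl2 (-0.88). None of the 12 was called with the fold enrichment. The calls of Usp36, Cggbp1 and Fto (-0.43, -0.39 and -0.40) were lost without Input replicate 2 (adjusted p = 0.119), Myc replicate 1 (0.0935) and Input replicate 2 (0.112).

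The 5 members that stood highest in Myc over Input were those of Snrpf, Cwf19l1, Cmss1, Cenpe and Wdr24. At Snrpf (chr10:93589031-93589929), a core protein of spliceosomal snRNPs whose promoter carries the 3 CCAAT boxes shown above, the pileups were 136 and 30 for the Input pair, 162 and 159 for the Myc pair, and 24 and 33 for the PCM1 pair. Although Myc was at less than the depth of Input replicate 1, both Myc libraries exceeded it. The difference of Myc to Input was 1.63 (SE 0.22, limma adjusted p = 5.84e-07). At Cmss1 the pileups were 66 and 12, 63 and 68, and 10 and 14 in the same order of groups, a difference of 1.49 (SE 0.31). At Cenpe they were 76 and 14, 63 and 86, and 10 and 12 (1.46, SE 0.30). Cwf19l1, a splicing-related factor, differed by 1.52 and Wdr24, a subunit of the GATOR2 complex of nutrient sensing, by 1.46. Wdr24 was also higher in PCM1 than in Input (1.05, adjusted p = 0.0086, and 0.23 without Input replicate 2), while the other 4 were not called in that comparison. By fold enrichment, Wdr24 was called higher in Myc than in Input (1.24, adjusted p = 0.014), and Snrpf (0.86, 0.051), Cwf19l1 (0.90, 0.060), Cmss1 (1.04, 0.054) and Cenpe (0.92, 0.087) were not.

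The members that stood lowest in Myc against Input included both members of Myh6. At the one on the TSS (chr14:54966410-54967219), the pileups were 1442 and 423 for the Input pair, 210 and 270 for the Myc pair, and 456 and 437 for the PCM1 pair. In level, both Myc libraries lay below the 4 others, and the difference to Input was -1.39 (SE 0.09, limma adjusted p = 2.21e-14). The second member (chr14:54967893-54968868), whose edge lay 966 bp upstream, had 1468 and 401, 203 and 252, and 477 and 461, a difference of -1.43 (SE 0.09). Camsap1, a microtubule minus-end protein, fell by 1.28 and Slc51a, a steroid and bile acid transporter subunit, by 1.27. By fold enrichment the difference at the Myh6 TSS was -0.50 on the log2 scale and was not called (adjusted p = 0.402), while Camsap1 was called (adjusted p = 0.020). Peg3, an imprinted zinc finger gene that shares its member with Usp29, had pileups of 2151 and 137 for the Input pair, 135 and 149 for the Myc pair, and 66 and 76 for the PCM1 pair. The value of Input replicate 1 stood apart from its replicate, and the difference of Myc to Input went from -1.61 to -0.57 (adjusted p = 0.0613) without it. In fold enrichment the sign turned, with 0.33.

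Myosin was not alone. Among the 9 cardiomyocyte marker members, 4 were lower in Myc than in Input and 0 higher, with a median of -0.43, beside 9.97% of all members called lower. They were Myh6, Actc1, cardiac alpha-actin (-0.98), Myl2, the ventricular myosin light chain (-0.90), and Tnnt2, cardiac troponin T (-0.83). Tnnt2 had pileups of 789 and 233 for the Input pair, 183 and 203 for the Myc pair, and 243 and 253 for the PCM1 pair. The levels of both Myc libraries were below all others at these 4 genes. The summed level of the list, as pileup over the library's median region, was 44.4 and 45.7 for the Input pair, 24.1 and 27.3 for the Myc pair, and 46.8 and 49.4 for the PCM1 pair, with Myh6 as its strongest gene. Of the sarcomere and Z-disc list, which shares genes with the markers, 10 of 23 members were lower in Myc and 0 higher (median -0.36). Of fatty acid oxidation 10 of 21 were lower and 1 higher (median -0.54). Cardiac transcription factors had 4 lower and 2 higher of 20 (-0.26), and calcium handling and channels 3 lower and 1 higher of 24 (-0.11). By fold enrichment no member of these lists was called in this comparison, beside 13 of all 11487 members.

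Among 9 endothelial members, Emcn, endomucin (0.96, adjusted p = 0.042), and Kdr, the VEGF receptor 2 (0.76, adjusted p = 0.029), were higher in Myc than in Input and 0 were lower, beside 10.1% and 9.97% of all members. Both calls were lost without Input replicate 2 (adjusted p = 0.23 and 0.40). By fold enrichment, and also with centring on members, 0 endothelial members were called higher and 0 lower in Myc than in Input. The median difference of the list was 0.48, and Erg (-0.47) and Tie1 (-0.25) went the other way without a call. Emcn had pileups of 44 and 10 for the Input pair, 32 and 35 for the Myc pair, and 11 and 15 for the PCM1 pair. The summed endothelial level was 9.37 and 8.74 for the Input pair, 10.4 and 11.6 for the Myc pair, and 9.23 and 9.10 for the PCM1 pair, with Tie1 as its strongest gene, and Vwf was at 0 libraries. None of the 7 fibroblast members was called against Input. Dcn, decorin (0.85), and Col1a1 (0.58) were higher in Myc than in PCM1, calls that were lost without Myc replicate 1 (adjusted p = 0.15) and PCM1 replicate 2 (0.21). These were 2 of the 7 fibroblast members, beside 37.2% of all members. Kdr (0.74) and Tek (0.94), 2 of the 9 endothelial members, were higher in Myc than in PCM1 too. Both calls were lost when 1 library was left out. The summed fibroblast level was 7.05 and 6.61 for the Input pair, 7.72 and 7.29 for the Myc pair, and 5.87 and 5.93 for the PCM1 pair, with Fbln1 the strongest. The summed smooth muscle and pericyte level was 19.8 and 18.4, 16.9 and 16.9, and 20.03 and 20.4, with Smtn the strongest. How many nuclei of these other cell types passed the cushion was not measured in these libraries. The part of cell composition in the differences between groups was not tested.

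**Figure D5:**
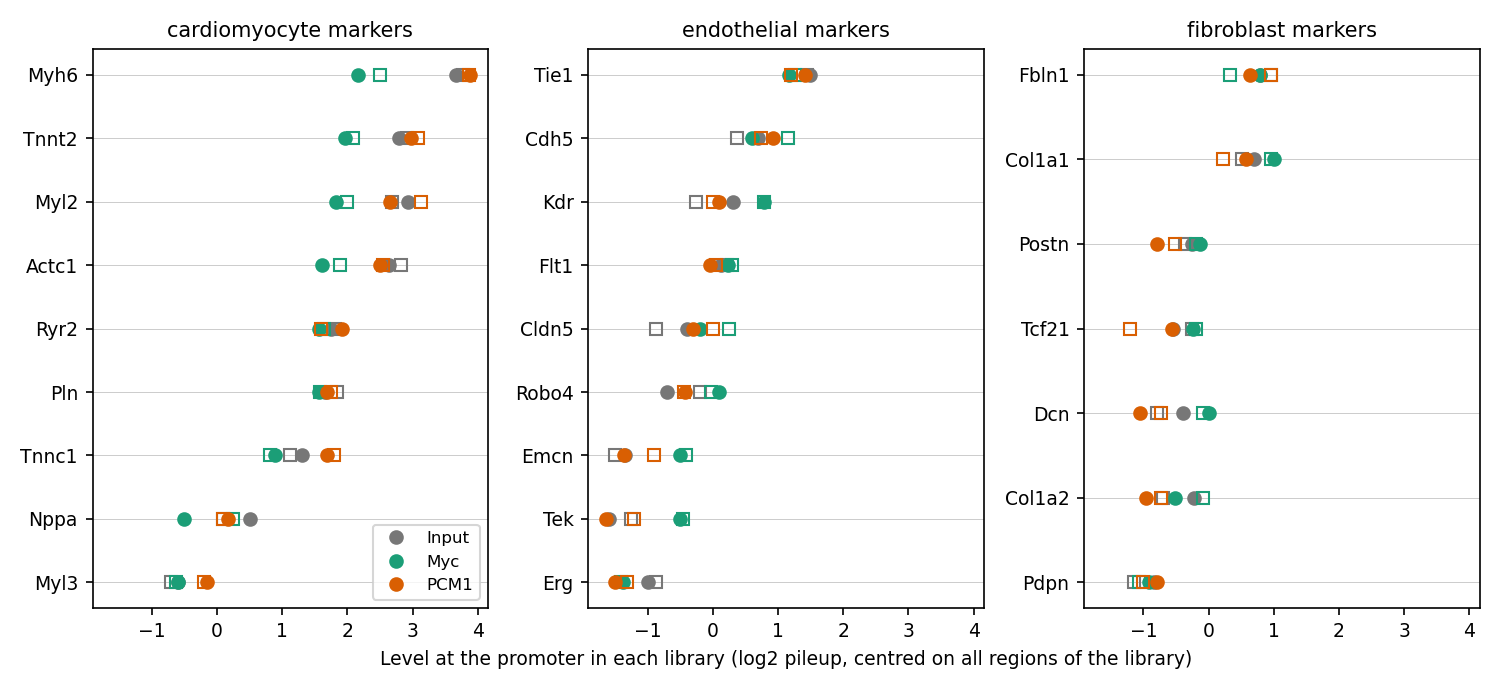
Level of the promoter member of each cardiomyocyte, endothelial and fibroblast marker gene in each library (log2 summit pileup plus 1, centred on the library's median region). Colours mark Input, Myc and PCM1, filled circles replicate 1 and open squares replicate 2. Myh6, Tnnt2, Actc1 and Myl2 lie lower in both Myc libraries than in the other 4.

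Few members were higher in PCM1 than in Input. Tuba8, the CpG-poor promoter shown above (chr6:121210305-121211128), had pileups of 102 and 15 for the Input pair, 35 and 41 for the Myc pair, and 41 and 50 for the PCM1 pair, a difference of 1.15 (SE 0.28, limma adjusted p = 0.00483). Mogat2, a monoacylglycerol acyltransferase of the gut, differed by 1.23, Cacna1a, a neuronal calcium channel, by 1.17, and Ly6g6d by 1.14. The call of Mogat2 was lost without PCM1 replicate 2 (adjusted p = 0.397), and those of Cacna1a, Tuba8 and Ly6g6d without Input replicate 2 (0.197, 0.203 and 0.219). The call of Sprtn, a protease that repairs DNA-protein crosslinks (1.14), remained with any 1 library left out (adjusted p up to 0.00854). By fold enrichment none of these 5 was called, with adjusted p from 0.094 for Sprtn to 0.208 for Tuba8. Of the cardiomyocyte markers, Tnnc1, cardiac troponin C, was higher in PCM1 (0.54, adjusted p = 0.032) with pileups of 279 and 66 for the Input pair, 86 and 83 for the Myc pair, and 99 and 103 for the PCM1 pair. Of the smooth muscle markers, Acta2, smooth muscle actin, was also higher in PCM1 (0.72, adjusted p = 0.037), and Myh11, smooth muscle myosin, was lower (-0.86, adjusted p = 0.012). Of the erythroid list, Klf1, an erythroid transcription factor, was lower (-0.57, adjusted p = 0.038). These calls were lost without Input replicate 2 for Tnnc1, Acta2 and Myh11 (adjusted p = 0.26, 0.30 and 0.098) and without Input replicate 1 for Klf1 (0.26).

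The members that stood lowest in PCM1 against Input included a ribosomal protein gene. Rpl23, a component of the large ribosomal subunit (chr11:97781849-97782813), had pileups of 304 and 68 for the Input pair, 164 and 176 for the Myc pair, and 24 and 23 for the PCM1 pair, and its difference of PCM1 to Input was -1.60 (SE 0.19, limma adjusted p = 1.7e-07). The 2 PCM1 libraries had lower levels than the 4 others. Pus3, a pseudouridine synthase whose member is shared with Ddx25, differed by -1.61, 2410002F23Rik by -1.75 and 2610021A01Rik by -1.73. All 4 were also called by fold enrichment. Peg3 had a value of -1.96, which became -0.92 without Input replicate 1 (adjusted p = 0.0031) and 0.03 in fold enrichment. Of 80 ribosomal protein members 25 were lower in PCM1 than in Input and 3 higher (median -0.27), of 75 mitochondrial ribosomal protein members 22 and 0 (-0.31), of 35 proteasome members 12 and 0 (-0.43), and of 64 members of RNA polymerase II and the general factors 17 and 1 (-0.29). Spliceosome members had 6 lower of 31, aminoacyl-tRNA synthetases 8 of 35, translation initiation factors 12 of 51 and cell cycle genes 5 of 27. Cullins and ubiquitin enzymes had 11 lower of 23, chaperones 7 of 16, fatty acid oxidation 9 of 21 and oxidative phosphorylation 19 of 77. These counts stand beside 22.6% lower, 1.31% higher and a median of -0.22 over all members. By fold enrichment the ribosomal and the mitochondrial ribosomal lists each had 0 higher and 2 lower. The proteasome list and RNA polymerase II with the general factors had 0 and 0, beside 3 higher and 49 lower of 11487. Centred on members, the ribosomal list had 8 higher and 10 lower, the mitochondrial ribosomal list 5 and 5, the proteasome list 1 and 4, and RNA polymerase II and the general factors 2 and 8, beside 823 higher and 872 lower of 11487.

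Between the captures the widest gap was at Snrpb2 (chr2:143062774-143063410), another spliceosome gene, whose promoter carries the NRF1 letters shown above. Its pileups were 72 and 20 for the Input pair, 97 and 57 for the Myc pair, and 7 and 8 for the PCM1 pair, and Myc exceeded PCM1 by 2.51 (SE 0.31, limma adjusted p = 8.79e-08). Its rank in PCM1 replicate 1 was 4.6, close to the lower end of that list. Rpl23 followed with 2.16, Snf8, an ESCRT-II subunit of endosomal sorting, with 2.15, Polr2k, a small subunit shared by the RNA polymerases, with 2.08, and Nemp2, a nuclear envelope protein, with 2.08. Each of these 5 was called by fold enrichment as well. At the other end were Zfp750, a zinc finger factor of the epidermis (-1.78), Prr29 (-1.77), both members of Myh6 (-1.69 and -1.54) and Angpt2, angiopoietin 2, a ligand of the TEK receptor (-1.52). Zfp750, Prr29 and Angpt2 were called by fold enrichment and Myh6 was not. Angpt2 had pileups of 56 and 16 for the Input pair, 23 and 13 for the Myc pair, and 30 and 36 for the PCM1 pair.

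Between the captures, on the scale centred on all regions, the lists of general cell functions named next had more members higher in Myc than lower, and the sarcomere, cardiomyocyte marker and fatty acid oxidation lists more lower than higher. Higher in Myc than in PCM1 were 52 of 80 ribosomal protein members with 1 lower (median 0.61), 50 of 75 mitochondrial ribosomal protein members with 4 lower (0.62), 28 of 35 proteasome members with 0 lower (0.72), 45 of 64 members of RNA polymerase II and the general factors with 1 lower (0.64), 23 of 31 spliceosome members with 0 lower (0.51) and 30 of 39 histone members with 1 lower (0.77), beside 37.2% higher, 7.52% lower and a median of 0.29 over all members. Sarcomere members had 2 higher and 13 lower (-0.43), cardiomyocyte markers 0 and 5 (-0.78), fatty acid oxidation 3 and 8 (-0.33), cardiac transcription factors 5 and 4 (-0.06), calcium handling and channels 5 and 5 (-0.04), and cell cycle genes 13 and 0 (0.35). Centring on members moves every region by the same amount and left 1465 members higher and 3184 lower of 11487. In that setting the ribosomal list had 24 higher and 9 lower, mitochondrial ribosomal 19 and 11, oxidative phosphorylation 21 and 16, RNA polymerase II and the general factors 21 and 9, proteasome 12 and 4, spliceosome 10 and 2, and histones 15 and 1. Translation initiation factors had 12 and 13, chaperones 4 and 5, aminoacyl-tRNA synthetases 4 and 4, cullins and ubiquitin enzymes 6 and 5 and cell cycle genes 2 and 7. The sarcomere list had 1 higher and 18 lower and the cardiomyocyte markers 0 and 9. Cardiac transcription factors had 1 and 11, calcium handling and channels 1 and 12, and fatty acid oxidation 1 and 12. By fold enrichment, 8 ribosomal members were higher in Myc and 0 lower, 12 mitochondrial ribosomal members higher and 2 lower, 4 proteasome members and 5 spliceosome members higher and 0 lower, beside 616 higher and 276 lower of 11487. No sarcomere or cardiomyocyte marker member was called in that setting, in which 892 members were called in all.

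Among the histone members, 19 of 39 were higher in Myc than in Input and 0 lower (median 0.49), beside 10.1% higher, 9.97% lower and a median of 0.08 over all members. Of the 39, 9 were higher and 1 lower when levels were centred on members, beside 445 higher and 2184 lower of 11487. By fold enrichment 0 histone members were called against Input, and 1 was higher and 1 lower in Myc than in PCM1. Histone genes lie in clusters of near-identical copies, so reads shared between copies make single values uncertain.

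Members on the sex chromosomes numbered 345 on X, at 37.7% of its protein-coding genes, and 3 on Y. Those on Y were Eif2s3y, a translation initiation factor subunit, Uty, a histone demethylase family member, and Ddx3y, an RNA helicase. Uty had pileups of 159 and 40 for the Input pair, 47 and 69 for the Myc pair, and 23 and 17 for the PCM1 pair, and its difference of PCM1 to Input was -1.0 (SE 0.26, limma adjusted p = 0.00863). Eif2s3y had 131 and 32, 47 and 46, and 17 and 16 (-0.95, adjusted p = 0.0172), and Ddx3y 95 and 47, 53 and 71, and 18 and 25 (-0.65, adjusted p = 0.13). All 3 were higher in Myc than in PCM1, by 0.80 to 0.85, and each of these calls was lost when 1 of the 2 Myc libraries was left out (adjusted p = 0.12, 0.22 and 0.21). The calls of Eif2s3y and Uty against Input were lost without Input replicate 1 (adjusted p = 0.14 and 0.09). Over all members, 37.2% were higher in Myc than in PCM1 and 22.6% were lower in PCM1 than in Input. The sexes of the hearts are not given in the labels.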

How the data were processed

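Omni-ATAC-Seq was performed on 3 groups of 2 libraries. Per the labels and methods, the authors used fastq-mcf for trimming, Bowtie2 2.3.3.1 for mapping to mm10, Picard 2.2.1 for duplicates and a blacklist filter. Alignments were moved for the Tn5 offset. MACS2 2.1.0.20160309 called peaks per library, without pooling replicates, at a q-value of 0.05. The deposited lists give, per peak, a score, which is the authors' -log10 q-value times 10, a fold enrichment (ratio of pileup plus 1 to local background plus 1), the -log10 p-value and the -log10 q-value. Depth was read from these values, and totals of mapped reads were not used here.

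Summit pileups were recovered from the fold and the -log10 p-value and came out whole, within 0.02, in at least 99.998% of peaks of each library. Each region took its strongest peak. Regions were merged with bedtools 2.31.1 and annotated with the TSS of 21938 protein-coding genes of GENCODE M21, with a single TSS per gene. Levels were fitted with limma 3.58.1 in R 4.3.3 over 48861 regions and all 6 libraries with the group as the only term, because the design shares one estimate of the spread. The fit was also run on simulated data with independent noise and no shift of promoters as a class. That run checked the code and does not vouch for the calls. Motifs were counted with Python 3.11.15 and pysam 0.24.0, and plots drawn with matplotlib 3.10.9. The labels call the libraries of a group replicates and the study describes them as biological ones. Where a pair came from one pool of hearts, p-values measure technical spread only.

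The members and gene lists were chosen with earlier results of these data known. Genes were named by rule: the 12 members with the highest rank in their weakest library, the 5 largest called differences per comparison and direction among members whose groups do not overlap, members and regions at the border of the rule, the widest, those with the most TSSs, the ends of each gene list, all cell type markers, and the members on chromosome Y. Regions carry the name of the gene whose TSS is nearest to their median summit. Alternatives were another centring (quantile, genome background, members alone), the fold enrichment, a mean pileup of at least 20, a q-value of 0.01, an equal number of peaks, a replicate block, leaving out each library or the third group, and other TSS windows. The listed genes Ahsp (erythroid), Cct6a (chaperonin) and Mars1 (aminoacyl-tRNA synthetase) were not found under these symbols in the annotation. Some named members are not reported here.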

Additional observations from a re-analysis of the deposited data

Results flagged for a closer look

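Peak summits inside Sun1 coding exons, which lie outside the promoter measurement, were counted because the transgene of the Myc hearts carries a Sun1 coding sequence. The count was 4 in Myc replicate 1 and 4 in Myc replicate 2. In the PCM1 libraries, labelled wildtype, it was 3 in replicate 1 and 7 in replicate 2, above the count of 0 in both Input libraries. How the PCM1 libraries came to have them was not tested.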

How the results depend on the processing

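Of 84 alternative values, 63 stayed close to the value reported and 21 moved, under a tolerance that differed by kind of value. A count of 3021 in place of 2307, for Myc against Input without the third group, was held close. The difference of members to distal regions in Input of 1.48 in place of 1.57 was held to have moved. Counts were judged by their totals, and with centring on members the split turned from 4271 higher and 864 lower to 1465 and 3184 for Myc against PCM1 and from 1162 and 1145 to 445 and 2184 for Myc against Input. With the fold enrichment, the members called were 13 for Myc against Input, 52 for PCM1 against Input and 892 for Myc against PCM1, and members stood 0.645, 0.672 and 0.582 above distal regions in Input, Myc and PCM1. By summit pileup, the differences of 1.57, 1.76 and 1.30 became 1.48, 1.64 and 1.19 with an equal number of peaks. For PCM1 against Input, 1802 members were called after quantile normalization, 1571 with scaling by the genome background and 1695 with centring on members, a choice made after seeing the data. Leaving out 1 library gave 885 to 2932, 1261 to 2486 and 3317 to 4948 calls, where a lone library of a group is assumed to vary like the other groups. In the window from 150 bases before to 50 after the TSS, 73.5% of genes with a member and 6.13% of genes with no region were CpG-rich. The number of member regions ranged from 10501 to 13572 over 14 alternatives of the rule and from 11495 to 11750 with 1 library left out. Deviations of equally numbered libraries from their group means correlated with 0.0069, -0.0043 and 0.0063, so no effect across regions was shared by replicate number. Whether samples were paired cannot be read from this. The study describes the input as an aliquot of cushion-purified nuclei whose remainder went to MAN-IP, and the labels do not say which libraries shared a preparation. With a replicate block, 2341, 2774 and 5148 members were called. The causes of these changes were not tested. Depth limits the shallow libraries, where a missing peak was only not detectable.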
